A study of Saccharomyces cerevisiae with 44 samples.

Results

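The subtelomeric genes are the annotated features that lie within 20 kb of a chromosome end in the budding yeast Saccharomyces cerevisiae. They were chosen by position alone. On each of the 16 nuclear chromosomes, a feature was taken if it started less than 20000 bases after the first annotated start or ended less than 20000 bases before the last annotated end. This gave 331 features at 32 ends, 6 of which are not reported here, and so 325 members of the 6692 features of the count table. The members were read beside 6360 other features, 28 of them mitochondrial. Each end held 5 to 15 members, with a median of 10.

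The study sequenced RNA of wild-type cells of the W303 background, a standard laboratory strain, grown at 30 °C and given a replication inhibitor or its vehicle until the time point chosen as the IC50 of that agent. Total RNA was made by the hot phenol method. In YEPD, a rich medium, HU at 50 mM and MMS at 0.002% share the water control C0, and CPT at 100 µg/mL has the control CC with 1 N NaOH. In SC, a synthetic medium, AD at 50 µg/mL has the control CA with 2% acetone, DOX at 25 µg/mL has the water control CD, and MTX at 150 µg/mL has the control CM with 0.1 N NaOH. HU, MMS, CPT, DOX and MTX are the field's usual short names for hydroxyurea, methyl methanesulfonate, camptothecin, doxorubicin and methotrexate, and AD is used as the labels write it. Each of the 11 groups had 2 cultures labelled as biological replicates, and the 2 technical replicates of a culture were summed. Culture totals ran from 16.7 M to 28.8 M counts. Because the control of each inhibitor differs in medium or solvent, a treatment is read only against its own control.

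Yeast chromosome ends carry repeated X and Y prime elements next to the telomere, and between these and the unique chromosome lie gene families that have been copied from end to end. Silencing proteins of the Sir complex spread inward from telomeres, and genes placed near an end are often kept at low levels. Many subtelomeric families serve changing growth conditions: sugar uptake, cell wall mannoproteins, vitamin synthesis, metal uptake and the handling of toxic compounds. The copies also make these genes hard to measure, since a short read from a recent duplicate can match several places.

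The stretches below lie upstream of members on which the results turn. Each runs from 300 to 101 bases before the start codon in the RefSeq R64 sequence of the reference strain S288C, whose coordinates are those of the sacCer3 build that the count table uses. THI12 and THI11 are shown because their 300 upstream bases differ at 16 aligned positions while their coding sequences, which make the pyrimidine part of thiamine, are 98.5% identical. Capitals in this pair mark bases that differ between them, and the stretches hold 12 such bases in each gene.
THI12 (chrXIV:14532-14731, plus strand): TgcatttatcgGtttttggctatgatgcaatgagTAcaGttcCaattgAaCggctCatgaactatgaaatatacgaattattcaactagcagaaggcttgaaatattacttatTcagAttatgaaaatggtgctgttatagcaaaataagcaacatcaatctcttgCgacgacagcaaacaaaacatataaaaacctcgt
THI11 (chrX:729697-729896, minus strand): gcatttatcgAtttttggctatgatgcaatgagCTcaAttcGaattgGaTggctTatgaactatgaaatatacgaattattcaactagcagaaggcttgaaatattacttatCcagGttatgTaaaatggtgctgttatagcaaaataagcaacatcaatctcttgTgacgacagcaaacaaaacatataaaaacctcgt
THI5 has the same 200 bases as THI12, and THI13 the same as THI11. DDI2 and DDI3 encode cyanamide hydratase, an enzyme known to be induced by DNA alkylation, and had the highest changes of the members named below in MMS. They share the stretch printed below, and over the full 300 bases they differ by the single substitution C281T, with DDI2 given first and positions counted from 1 at the outermost base. Capitals mark the reverse of AGGGG, the core of the stress response element.
DDI2 (chrXIV:11152-11351, plus strand): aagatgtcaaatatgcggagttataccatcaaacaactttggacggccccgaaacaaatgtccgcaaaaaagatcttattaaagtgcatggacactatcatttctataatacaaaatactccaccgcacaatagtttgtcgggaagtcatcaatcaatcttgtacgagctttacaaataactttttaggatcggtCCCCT
FET4 and ENB1, carriers of iron into the cell, are shown with capitals on TGCACCC, the core that the iron regulator Aft1 is known to bind.
FET4 (chrXIII:914639-914838, minus strand): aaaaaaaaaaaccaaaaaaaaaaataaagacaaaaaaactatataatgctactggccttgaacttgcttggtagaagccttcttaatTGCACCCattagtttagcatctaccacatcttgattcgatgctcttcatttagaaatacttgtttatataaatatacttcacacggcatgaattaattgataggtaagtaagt
ENB1 (chrXV:21412-21611, minus strand): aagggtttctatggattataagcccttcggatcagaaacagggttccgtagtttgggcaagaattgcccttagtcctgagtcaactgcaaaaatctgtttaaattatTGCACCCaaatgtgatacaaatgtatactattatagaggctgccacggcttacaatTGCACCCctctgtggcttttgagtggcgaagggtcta
PAU1, a cell wall mannoprotein of the seripauperin family, has the same 200 bases as PAU14, and capitals mark the reverse of ATTGTT, the core of sites of the anaerobic repressor Rox1.
PAU1 (chrX:9239-9438, minus strand): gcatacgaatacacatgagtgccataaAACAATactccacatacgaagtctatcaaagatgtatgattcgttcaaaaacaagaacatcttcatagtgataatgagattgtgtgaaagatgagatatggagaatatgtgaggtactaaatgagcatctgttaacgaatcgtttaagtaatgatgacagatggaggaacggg

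The members differ in make-up from the rest of the genome. A near-identical copy, meaning at least 95% identity over at least 30% of the feature's length, was found for 174 of the 325 members (53.5%) and for 212 of the 6360 other features (3.33%). A further share overlapped another feature over at least 30% of their length, so that 183 members in all are uncertain in their counts and 142 are neither copied nor overlapping. The members were also shorter, with a median coding length of 678 bases against 1101. Of the members, 250 (76.9%) matched an entry of the RefSeq annotation, against 90.4% of the other features. The unmatched 75 members had a median level of 0.261 RPKM, and 24 of them were at 0 counts in every library.

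Member genes were low. The median over members of the mean level across the 22 cultures was 13.5 RPKM (reads per kilobase of coding length per M counts, computed here), against 54.7 RPKM for the other features. Within a culture the median of the members was 0.252 ± 0.0473 (SD, n = 22 cultures) of the median of the others, with a range of 0.19 to 0.332. Among features without a near-identical copy this ratio was 0.498, and among those with a RefSeq entry it was 0.386. The members made up 1.43% to 1.89% of the counts of a culture. In all, 31 members (9.54%) had 0 counts in all 44 libraries, but 27 of them overlap another feature over 98.7% to 100% of their length and have a near-identical copy. The file headers show no option to count reads that overlap several features, so a 0 there sets no limit on the level. The other 4, COS12, YGL262W, YNR071C and AIF1, are free of both, and 0 counts over the total of 497875995 allow up to 0.00603 CPM (counts per M counts) for sequence that the W303 cells carry. Among features neither copied nor overlapping, the median was 30.7 RPKM for 142 members and 62.6 RPKM for 5472 others. Of the members, 266 (81.8%) passed the filter on low counts and were tested, against 95.5% of the others.

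The level rose with distance from the end, though not evenly. The median was 5.84 RPKM for the 101 features in the first 5 kb, 10.3 RPKM from 5 to 10 kb, 15.8 RPKM from 10 to 15 kb and 36.5 RPKM from 15 to 20 kb. Just outside the limit, the 85 features from 20 to 25 kb had a lower median of 23.1 RPKM, and the value past 50 kb was 55.7 RPKM. The share of features with a near-identical copy moved with distance as well, from 81.2% in the first 5 kb to 18.2% from 15 to 20 kb, and its part in the level was not tested. Over features neither copied nor overlapping, the medians of these 4 member bins were 0.575, 14.1, 37.8 and 46.9 RPKM. The lowest values thus also lay outermost, among 18 single features, some of them without a RefSeq entry. Whether the lack of an entry bears on their level was not tested. In the first 5 kb the culture medians were 3.28 to 9.06 RPKM over the 10 rich-medium cultures and 2.74 to 4.84 RPKM over the 12 cultures in synthetic medium, and these ranges overlap.

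**Figure D1:**
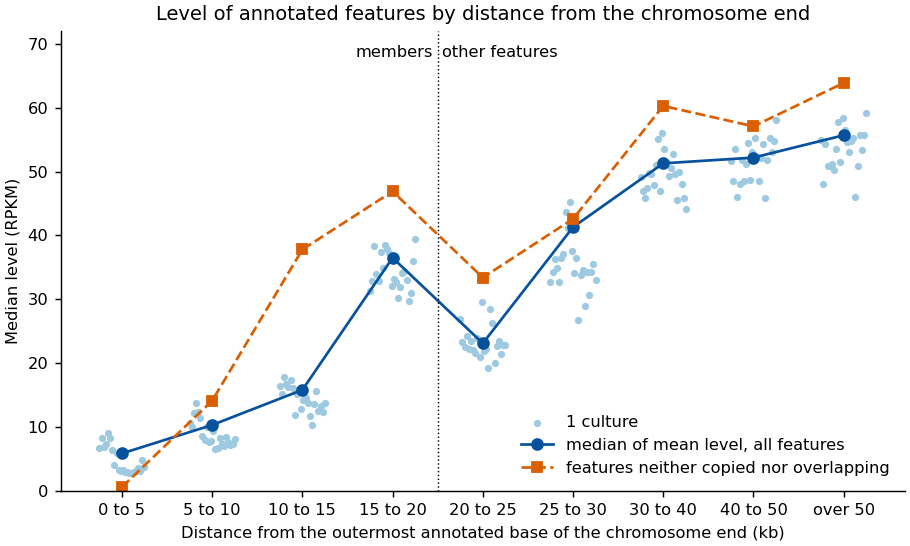
Median level (RPKM) of annotated features in bins of distance from the chromosome end (kb); small points are single cultures, the solid line is the median over features of their mean level and the dashed line is the same for features neither copied nor overlapping. The solid line climbs from 5.84 RPKM in the outermost bin to 36.5 RPKM at 15 to 20 kb, dips to 23.1 RPKM just outside the limit and reaches 55.7 RPKM in the rest of the genome.

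The ends themselves were unequal, as mapped on the reference strain. The median member level ran from 0.13 RPKM at the right end of chromosome XIV, where AIF1 and YNR071C had 0 counts, to 69.7 RPKM at the left end of chromosome XIII, where ERO1, the oxidase that forms disulfide bonds in the endoplasmic reticulum, reached 462.5 RPKM. Ends can differ between strains, and low expression cannot be told apart from sequence that W303 lacks. Strongly transcribed genes were found at several ends. The highest over the 10 vehicle cultures was DLD3, a D-lactate dehydrogenase 16091 bases from the left end of chromosome V, with 698 ± 55.5 RPKM (SD, n = 10 cultures). HXK1, a hexokinase of the first step of glycolysis, had 673 ± 306 RPKM (SD), and its cultures spread from 250.1 to 1246 RPKM. ADH6, an NADP-dependent alcohol dehydrogenase, had 563 ± 73.2 RPKM, ERO1 478 ± 117 RPKM, the zinc transporter ZRT1 434 ± 158 RPKM and MSC1 267 ± 140 RPKM (SD, n = 10 cultures each). ZRT1 and MSC1 spread over a wide range, as HXK1 did across the vehicles, while the cultures of DLD3 stayed between 601.6 and 777.9 RPKM. These genes lie between 11022 and 18188 bases from their ends, and each is without a near-identical copy.

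In the tests across all 6344 features, the share of members called was compared with the share of all features called. A call is an adjusted p under 0.05 in edgeR's quasi-likelihood test with Benjamini-Hochberg adjustment over all features tested, and changes are given as log2 differences with their standard errors. In HU, 19 of the 266 tested members were called (7.14%), 17 higher and 2 lower, against a background of 3.56% of all features, 2.63% higher and 0.93% lower. In MMS, 31 members were called (11.7%), 22 higher and 9 lower, against 10.8%, with 6.07% higher and 4.7% lower. The median member difference was 0.09 in HU, 0.19 in MMS, 0.08 in CPT, -0.16 in AD, 0.04 in DOX and 0.01 in MTX. The medians over all features were -0.02, -0.02, 0.01, -0.01, -0.02 and -0.03 in the same order, so the members stood above them in 5 treatments and below in AD. The gaps were small in DOX and MTX. Near-identical copies count more than once in the member medians, and the gaps were not tested.

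In CPT, DOX and MTX the placement depended on how copied genes were treated. In CPT 7 members were called (2.63%), 6 higher and 1 lower, beside 2.81% of all features, 1.91% higher and 0.898% lower. In AD 10 were called (3.76%), 4 higher and 6 lower, beside 3.14%, 2.02% higher and 1.12% lower. In DOX, the treatment with the most calls genome-wide, 92 members were called (34.6%), 65 higher and 27 lower, beside 41.2%, with 21.0% higher and 20.2% lower. In MTX 46 were called (17.3%), 26 higher and 20 lower, beside 19.8%, with 10.8% higher and 9.0% lower. Of the 129 tested members neither copied nor overlapping, the share called was above that of all such features in each treatment. It was 6.2% against 2.95% in HU, 15.5% against 10.7% in MMS, 3.88% against 2.88% in CPT and 4.65% against 3.28% in AD. In DOX it was 48.1% against 42.1% and in MTX 27.1% against 20%, so DOX, MTX and CPT changed sides. With near-identical copies summed into 1 feature, the shares were 44.8% against 41.2% in DOX, 21.0% against 19.0% in MTX and 2.76% against 2.59% in CPT. Whether members and all features differ in these shares was not tested. Over the 6 treatments, 131 of the tested members (49.2%) were called at least once, against 54.7% of all features. The share called was lower among the 62 tested members of the outermost 5 kb than among the 55 at 15 to 20 kb in each treatment, for example 16.1% against 47.3% in DOX and 3.23% against 36.4% in MTX. Between the water controls C0 and CD it went the other way, with 22.6% against 16.4%. Levels and copy number move with distance as well, and their part in this was not tested.

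**Figure D2:**
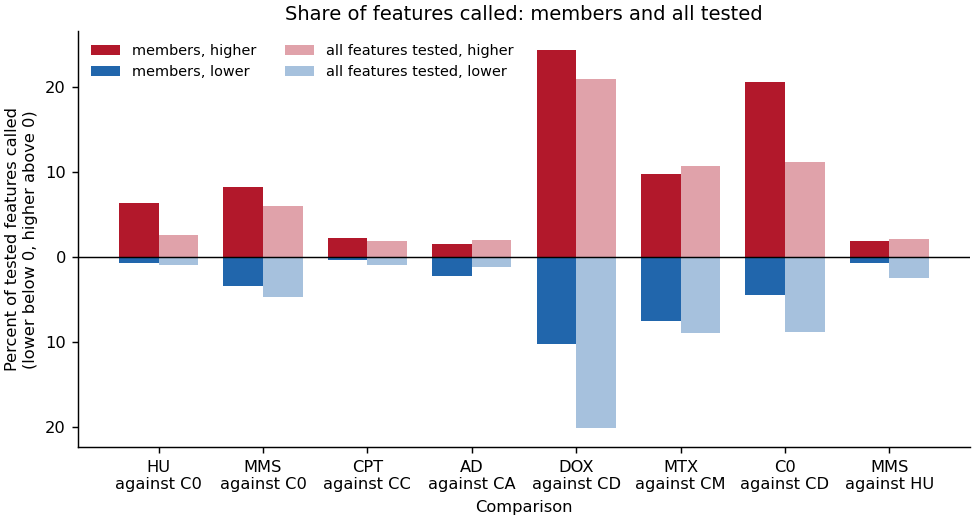
Percent of tested features called by edgeR (adjusted p under 0.05) in each of the 8 comparisons, for the 266 tested members and for all 6344 features, split by direction. The members sit above all features in HU (7.14% against 3.56%) and in the medium comparison (25.2% against 20.1%), and below them in DOX (34.6% against 41.2%), a placement that turns over when copied and overlapping features are left out (48.1% against 42.1%).

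In HU, an inhibitor of ribonucleotide reductase, the called members included both DDI genes and 3 of the 4 THI genes. DDI3 and THI5 lie in a block with SNO3 and SNZ3 on the left end of chromosome VI, and DDI2 and THI12 lie in its copy, with SNO2 and SNZ2, on the left end of chromosome XIV. DDI2 had 6.94 and 5.62 CPM in the C0 cultures and 27.7 and 19.7 CPM in HU, and DDI3 had 4.44 and 6.74 CPM against 23.4 and 18.3 CPM. The groups do not overlap, and both genes rose by 1.91 (SE 0.25 and 0.27, edgeR adjusted p = 0.000324 and 0.000489). Since the coding sequences differ at a single base of 678, reads of one cannot be told from reads of the other. Their summed counts, an alternative chosen after seeing the data, were 11.3 and 12.4 CPM in C0 and 51.2 and 38.6 CPM in HU.

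THI5 and THI12, whose product makes the pyrimidine of thiamine, were low in C0 and higher in both HU cultures. THI5 went from 1.94 and 2.74 CPM to 7.18 and 6.14 CPM, a rise of 1.52 (SE 0.27, edgeR adjusted p = 0.00375). THI12 went from 2.88 and 5.2 CPM to 12.9 and 13.1 CPM, a rise of 1.70 (SE 0.32, edgeR adjusted p = 0.0063). ERR2, an enolase-related gene, had 2.15 and 2.6 CPM in C0 and 8.21 and 6.55 CPM in HU, and rose by 1.64 (SE 0.30, edgeR adjusted p = 0.00529). YML131W, an open reading frame with no near-identical copy, had 44.1 and 44.7 CPM against 115.9 and 148.4 CPM, a rise of 1.57, and this call was lost in 3 of the 4 fits without a culture (adjusted p from 0.0891 to 0.123). The 2 members that fell encode chromatin proteins. RSC9, a subunit of the RSC nucleosome remodeller, fell by 0.70 (SE 0.11, edgeR adjusted p = 0.00101) from 329.5 and 374.7 CPM to 220 and 212.7 CPM. RPD3, a histone deacetylase, fell by 0.44 (SE 0.10, edgeR adjusted p = 0.0156) from 247.5 and 256.7 CPM to 185.7 and 185.2 CPM. Fewer members were called in HU in each of the 4 fits without a culture. The share of all features in such fits was not set beside this, here or in the comparisons below. DDI2, DDI3 and RSC9 were called in each of these fits. Without C0 culture 1 the adjusted p was 0.0612 for THI5, 0.0831 for THI12 and 0.0633 for ERR2. RPD3 was lost in each of these fits, with adjusted p from 0.0505 to 0.126.

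MMS, which methylates DNA bases, was read against the same C0 cultures, so its values stand beside those of HU without an independent control. DDI2 reached 32.6 and 58.1 CPM and DDI3 28.4 and 52.3 CPM, and they rose by 2.85 (SE 0.25) and 2.86 (SE 0.28), with edgeR adjusted p of 2.23e-06 and 3.87e-06. The second MMS culture was the higher for both. SNO2 and SNO3, of pyridoxine synthesis, had 13.6 and 10.9 CPM and 13.2 and 12.5 CPM in C0, and 23.7 and 38.2 CPM and 23.9 and 38.9 CPM in MMS. They rose by 1.33 (SE 0.19) and 1.29 (SE 0.19). Their coding sequences differ at 2 of 669 bases, so these are not 2 separate measurements. Summed, they had 26.5 and 23.5 CPM in C0 and 47.8 and 78.4 CPM in MMS. DFP4, of the DUP240 membrane protein family, rose by 1.35 (SE 0.26, edgeR adjusted p = 0.00219) from 11.7 and 11.4 CPM to 26.2 and 32.8 CPM.

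YHR214C-B, a Ty1 retrotransposon reading frame, had 224.7 and 219.2 CPM in C0 and 586.8 and 664.6 CPM in MMS, a rise of 1.49 (SE 0.22). It belongs to a group of 62 near-identical Ty features, so the value is not that of a single locus. RPN12, a subunit of the proteasome lid, rose by 1.14 (SE 0.15, edgeR adjusted p = 9.34e-05), and FET4, the low-affinity iron transporter, rose by 0.93 (SE 0.14) from 425.5 and 569 CPM to 896.4 and 1003.7 CPM. ERG13, the HMG-CoA synthase of sterol synthesis, went from 223.7 and 296.7 CPM to 115.2 and 113.6 CPM and fell by 1.19 (SE 0.16, edgeR adjusted p = 0.000111). MAL33, a maltose transcription factor, fell by 0.83, MAL31, a maltose permease, by 0.87, and MMP1, the S-methylmethionine permease, by 0.82. As in HU, fewer members were called in each fit without a culture. ERG13, SNO2, SNO3, DDI2, DDI3, DFP4 and YHR214C-B were called in each of these fits. MAL33 was lost without MMS culture 2 (adjusted p = 0.0812), MAL31 in all of them (adjusted p from 0.0745 to 0.173) and MMP1 in 3 of them (adjusted p from 0.0655 to 0.209).

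Set directly against each other, MMS and HU differed at 7 members (2.63%), 5 higher in MMS and 2 lower, beside 4.52% of all features, 2.11% higher and 2.41% lower. Among features neither copied nor overlapping, the shares were 3.88% and 4.87%. FET4 was higher in MMS by 1.03 (SE 0.14, edgeR adjusted p = 0.000396), with HU at 420.6 and 512.2 CPM. ERG13 was lower in MMS by 1.09 (SE 0.16), with HU at 234.2 and 251.6 CPM. DDI2 and DDI3 were higher in MMS by 0.93 (SE 0.23) and 0.95 (SE 0.25), with adjusted p of 0.029 and 0.0415. MGA2, a membrane-bound activator of the fatty acid desaturase gene, was higher in MMS by 0.97 (SE 0.20) at 510.7 and 528.6 CPM against 282.3 and 247.3 CPM. Leaving out any 1 culture gave fewer called members. FET4 and ERG13 were called in all 4 such fits, DDI2 and DDI3 only without MMS culture 1, with adjusted p up to 0.397 and 0.456 in the others, and MGA2 in none (adjusted p from 0.0504 to 0.0955).

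In CPT, a topoisomerase I poison, the changes of the members were few. RSC9 fell by 0.55 (SE 0.11, edgeR adjusted p = 0.00998), from 287.9 and 267.3 CPM in CC to 184.9 and 193.5 CPM. DFP4 rose by 1.28 (SE 0.26) from 10.3 and 6.26 CPM to 20.9 and 19 CPM, and RPN12 rose by 0.72 (SE 0.15) from 45.7 and 36.7 CPM to 67.1 and 68 CPM. GTT1, a glutathione transferase, rose by 1.16 (SE 0.29). Its cultures lay far apart: 35.9 and 54.8 CPM were from CC, against 66.9 and 136.8 CPM with the drug. In the fits without a culture, the number of members called rose without CPT culture 1 and fell in the others. Each named call was lost in at least 2 of these fits, with adjusted p up to 0.0695 for RSC9, 0.122 for DFP4, 0.124 for RPN12 and 0.437 for GTT1. The replicate block also ended the GTT1 call (adjusted p = 0.0542).

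The members called in AD included IMD2, FET4, DLD3 and FDH1. IMD2, an IMP dehydrogenase of guanine nucleotide synthesis that shares near-identical sequence with features at another end, fell by 1.33 (SE 0.24, edgeR adjusted p = 0.00852), from 252.1 and 302.9 CPM in CA to 106 and 114.8 CPM. FET4 fell by 0.77 (SE 0.14, edgeR adjusted p = 0.0103), from 375.4 and 356.9 CPM to 230.4 and 197.7 CPM. DLD3 rose by 0.58 (SE 0.13) from 912.5 and 954.6 CPM to 1326.6 and 1464.9 CPM. FDH1, a formate dehydrogenase, rose by 1.49 (SE 0.34) from 8.01 and 2.76 CPM, which lie far apart, to 15.7 and 14.5 CPM. The lysine enzyme LYS1 rose by 0.85 (SE 0.22, edgeR adjusted p = 0.0467), a call lost with the replicate block (adjusted p = 0.0559), with DESeq2's size factors and in each fit without a culture (adjusted p from 0.0726 to 0.219). Among the fits without a culture, the number of members called fell without CA culture 1 and fell furthest without AD culture 2. Without AD culture 2 the adjusted p was 0.0857 for IMD2, 0.142 for FET4, 0.201 for DLD3 and 0.115 for FDH1.

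In DOX, an intercalating topoisomerase II poison, 41 members (15.4%) rose and 15 (5.64%) fell by at least 2-fold, beside 6.43% and 6.81% of all features. Near-identical copies count more than once in these member shares, and whether members and all features differ in them was not tested. YEL073C fell by 3.41 (SE 0.27, edgeR adjusted p = 3.08e-07), from 63.4 and 52.3 CPM in CD to 5.77 and 5.12 CPM. HXK1 fell by 2.89 (SE 0.64, edgeR adjusted p = 0.00308), from 1150 and 1330.2 CPM to 127 and 206.8 CPM. DIA1 fell by 1.93 (SE 0.29), and MAL31 by 1.61 (SE 0.25) from 255.3 and 207.8 CPM to 80.4 and 71.8 CPM. The cultures of the groups do not overlap in any of these genes. FET4 fell by 1.27 (SE 0.15, edgeR adjusted p = 9.39e-06), from 393.7 and 370.1 CPM to 163 and 154 CPM.

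The alpha-glucoside permeases MPH2 and MPH3 were both called higher in DOX. Their 300 upstream bases are identical and their coding sequences are 98.7% identical, so these are not 2 separate measurements. Summed, they had 20.3 and 20.3 CPM in CD and 81.1 and 93.4 CPM in DOX. MPH3 had 11.7 and 11.5 CPM in CD and 44.8 and 54.3 CPM in DOX, a rise of 2.09 (SE 0.19, edgeR adjusted p = 1e-06), and MPH2 rose by 2.10 (SE 0.24). THI12 rose by 2.63 (SE 0.34) from 2.13 and 2.53 CPM to 12.7 and 16 CPM, and THI5 by 2.16 (SE 0.29) from 1.49 and 1.22 CPM to 6.28 and 5.85 CPM. YKR104W rose by 2.28 (SE 0.30) from 8.07 and 5.91 CPM to 36.6 and 31.6 CPM. CHA1, the serine and threonine ammonia-lyase, rose by 2.10 (SE 0.54, edgeR adjusted p = 0.00609), a call lost without CD culture 1 (adjusted p = 0.0569). The other DOX genes named here by the rule were called in each fit without a culture.

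In MTX, a dihydrofolate reductase inhibitor, the called members included enzymes of glutathione and peroxide chemistry. GTT1 rose by 2.06 (SE 0.30, edgeR adjusted p = 0.000327), from 36.7 and 37.1 CPM in CM to 171.3 and 137.3 CPM. HYR1, a thiol peroxidase, lies beside GTT1 at the right end of chromosome IX and rose by 1.40 (SE 0.19) from 44.5 and 46.2 CPM to 125.1 and 114.1 CPM. SEO1, a putative permease, rose by 2.26 (SE 0.30) from 5.75 and 6.69 CPM to 32.6 and 26.8 CPM, and THI12 by 2.00 (SE 0.33) from 2.55 and 2.34 CPM to 10.5 and 9.13 CPM. ERO1 fell by 0.77 (SE 0.16, edgeR adjusted p = 0.0038), from 651.3 and 687.1 CPM to 414.2 and 373.2 CPM. ENB1, a transporter of the iron chelate enterobactin, fell by 0.92 (SE 0.23) from 146.4 and 156.6 CPM to 88.4 and 71.4 CPM, and ZRT1 by 1.28 (SE 0.41, edgeR adjusted p = 0.041) from 761.3 and 639.1 CPM to 330.4 and 246.2 CPM. Each fit without a culture gave fewer called members in MTX. GTT1, HYR1, SEO1 and THI12 were called in each of these fits, ERO1 was lost without MTX culture 2 (adjusted p = 0.0547), ENB1 without CM culture 2 or MTX culture 2 (adjusted p = 0.0665 and 0.125), and ZRT1 in each (adjusted p from 0.0923 to 0.24).

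**Figure D3:**
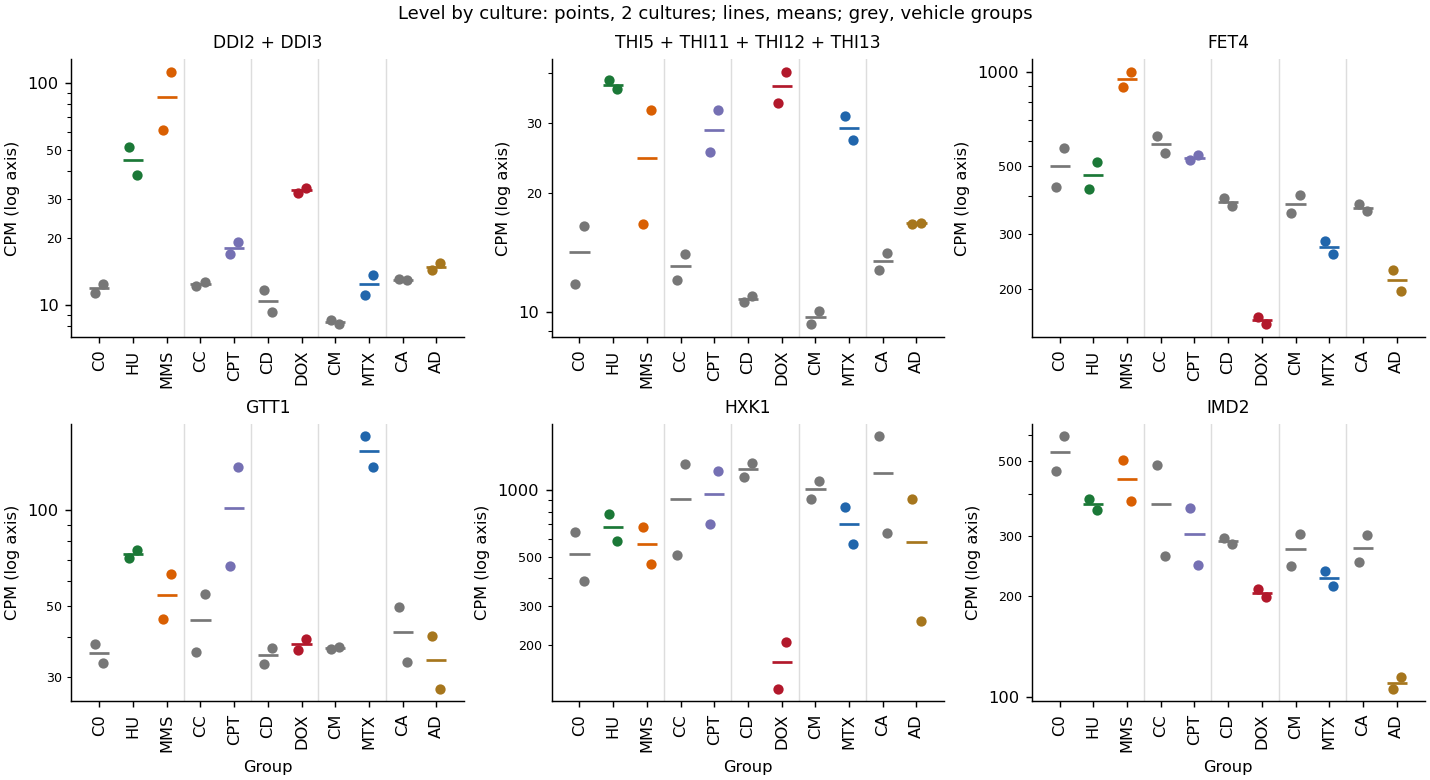
Level in each culture (CPM, log scale) of members named in the treatment comparisons, in the 11 groups: DDI2 and DDI3 summed, the 4 THI genes summed, FET4, GTT1, HXK1 and IMD2; points are cultures, lines are means and vehicles are grey. The DDI sum lies at 11.3 and 12.4 CPM in C0 and at 61.2 and 112.3 CPM in MMS, and HXK1 falls from 1150 and 1330.2 CPM in CD to 127 and 206.8 CPM in DOX.

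The water controls C0 and CD differ in their medium, and both also serve as controls above, so this comparison is not independent of those. Of the tested members, 67 (25.2%) differed, 55 higher and 12 lower in C0, beside 20.1% of all features, 11.2% higher and 8.87% lower. Among features neither copied nor overlapping, 24.8% of members differed beside 20.5% of all. GIT1, a permease of glycerophosphoinositol, was higher in C0 by 2.85 (SE 0.47, edgeR adjusted p = 0.00151), at 207.3 and 189.2 CPM against 32.5 and 22.4 CPM. COS10, of a family that sorts membrane proteins to the vacuole, was higher by 1.71 (SE 0.26, edgeR adjusted p = 0.000531), at 198.6 and 213.6 CPM against 64.5 and 61.3 CPM. PAU1 was higher by 1.86 (SE 0.29), at 33.3 and 33.1 CPM against 9.48 and 8.8 CPM. SNZ3 and SNZ2, of pyridoxine synthesis, were lower in C0 by 1.33 (SE 0.24) and 1.13 (SE 0.22). Their coding sequences are 99.3% identical, so these are not 2 separate measurements. Summed, they had 33.9 and 27.5 CPM in C0 and 69.7 and 73.2 CPM in CD. SRY1, a hydroxyaspartate dehydratase, was lower in C0 by 1.02 (SE 0.21). GIT1 spread widely over the vehicle cultures of all groups, from 14.4 to 356.6 RPKM with a mean of 83.6 RPKM (SD 108.2). Its highest vehicle culture was of neither C0 nor CD, and whether the medium bears on its difference was not tested.

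The other vehicle in rich medium, CC, did not match C0. Its COS10 values were 158.2 and 77.4 CPM and its PAU1 values 23.8 and 12.8 CPM. The 12 cultures in synthetic medium spanned 38.8 to 93.2 CPM for COS10 and 6.24 to 15.8 CPM for PAU1, so the second CC culture lay inside both ranges. CC carries NaOH, and whether that bears on these values was not tested. Between C0 and CD, fewer members were called in each fit without a culture. GIT1, COS10, PAU1 and SNZ3 were called in each fit without a culture, while SNZ2 was lost without C0 culture 2 (adjusted p = 0.0669) and SRY1 without CD culture 2 (adjusted p = 0.0556).

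**Figure D4:**
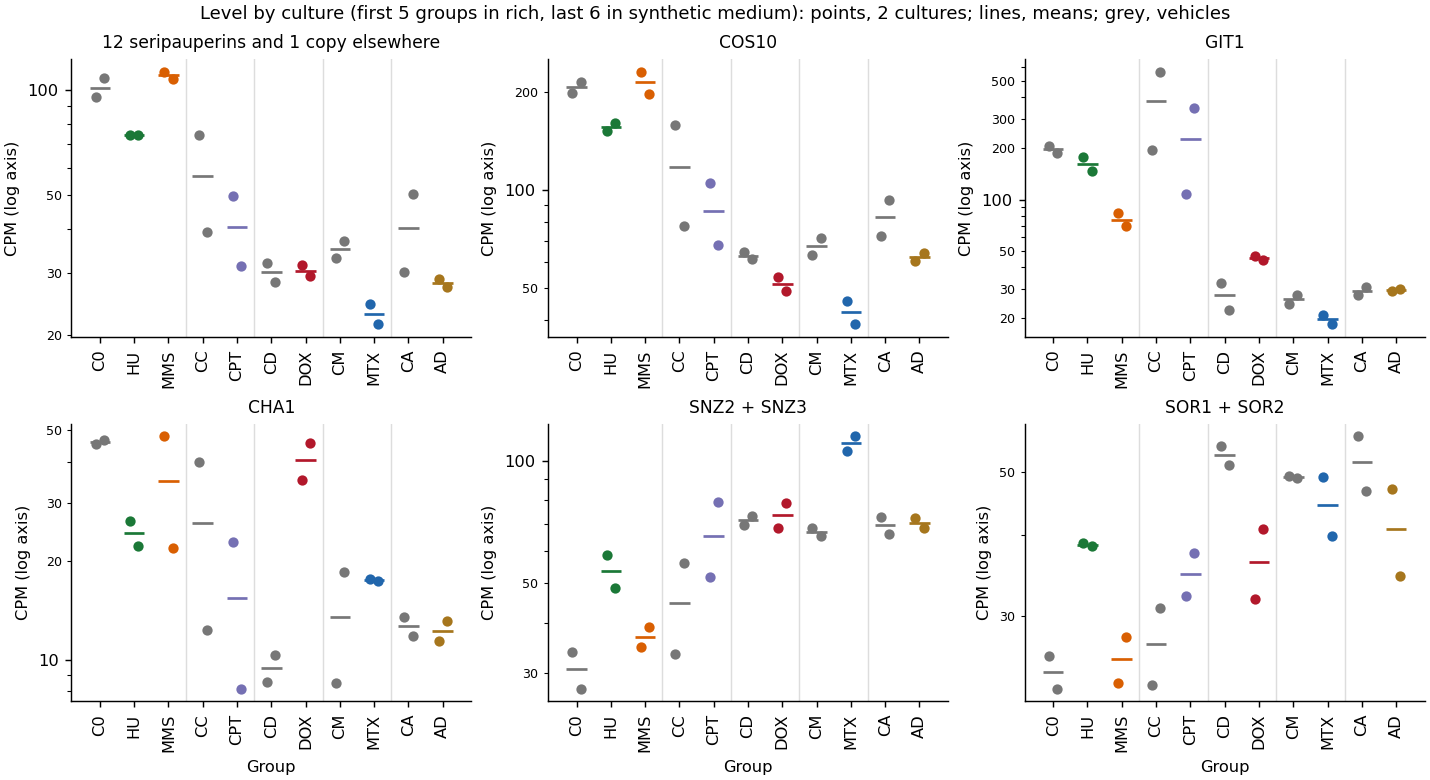
Level in each culture (CPM, log scale) of 13 summed PAU features, COS10, GIT1, CHA1, SNZ2 and SNZ3 summed, and SOR1 and SOR2 summed, in the 11 groups; points are cultures, lines are means and vehicles are grey. GIT1 lies at 207.3 and 189.2 CPM in C0 and at 32.5 and 22.4 CPM in CD, and its highest vehicle culture is of neither group.

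Read by family, the 8 genes of thiamine and pyridoxine synthesis were called higher in 5 treatments: 4 in HU, 3 in MMS, 1 in CPT, 4 in DOX and 4 in MTX, with none lower in the 6 treatments. Of all features, 2.63%, 6.07%, 1.91%, 21.0% and 10.8% were called higher in these 5, in the same order. In AD edgeR called 0 of the 8, with 0 at an unadjusted p under 0.05 and 0 by DESeq2. Their median differences were 0.79, 0.80, 0.73, 0.43 and 0.68 in these 5, and 0.08 in AD. With the 4 near-identical THI genes counted as 1, the sum was 11.8 and 16.5 CPM in C0, 38.4 and 36.4 CPM in HU, 10.6 and 11 CPM in CD and 33.7 and 40.3 CPM in DOX. The sum was called in HU at 1.41 (SE 0.24), in MMS at 0.79 (SE 0.24) and in CPT at 1.14 (SE 0.24). It was also called in DOX at 1.78 (SE 0.25) and in MTX at 1.58 (SE 0.25). The MMS cultures were at 16.7 and 32.2 CPM, the first of them just above the second C0 culture. In AD the sum differed by 0.31 (SE 0.24, edgeR adjusted p = 0.503). In DOX the single genes rose by 2.63 (THI12), 2.16 (THI5), 1.38 (THI11) and 0.80 (THI13), and the differences between them were not tested.

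The 6 aryl alcohol dehydrogenase genes (AAD) were all called higher in DOX, where 21.0% of all features were called higher. Their differences ran from 0.60 for AAD14 to 1.44 for AAD6, with a median of 1.02. AAD3 and AAD15 share near-identical sequence, so these are not 6 separate measurements. In MTX only AAD10 rose (0.73) and AAD14 fell by 0.67. The 3 ERR genes were also all called higher in DOX, by 1.42 to 1.58. ERR1 and ERR2 are identical in coding sequence and ERR3 is 99.1% identical to ERR2, so these are not 3 separate measurements. The seripauperins had 13 tested genes of 18, of which 9 were called higher in C0 than in CD, beside 11.2% of all features. The median over the 13 was 1.72. The large PAU group of 13 near-identical features summed to 95.2 and 107.8 CPM in C0 and 32.1 and 28.3 CPM in CD, a difference of 1.75 (SE 0.27, edgeR adjusted p = 0.000736), while CC was at 74.5 and 39.3 CPM. A second PAU group, of PAU3, PAU15, PAU16, PAU19, PAU21 and PAU22, rose in DOX from 0.716 and 0.757 CPM to 4.26 and 6.05 CPM, by 2.80 (SE 0.39).

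Of the 10 tested COS genes, edgeR called 0 in each of the 6 treatments, with medians from -0.20 to 0.22. Of these 60 values, 2 had an unadjusted p under 0.05 and DESeq2 called 0. Of the 8 YRF1 genes, the helicases of the Y prime element, edgeR called YRF1-7, in MMS, at 0.49. In MMS 7 of the 8 had an unadjusted p under 0.05 and DESeq2 called 2. The 8 YRF1 genes are near-identical, and their MMS differences ran from 0.36 to 0.49, so reads of YRF1-7 cannot be told from those of the other copies.

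**Figure D5:**
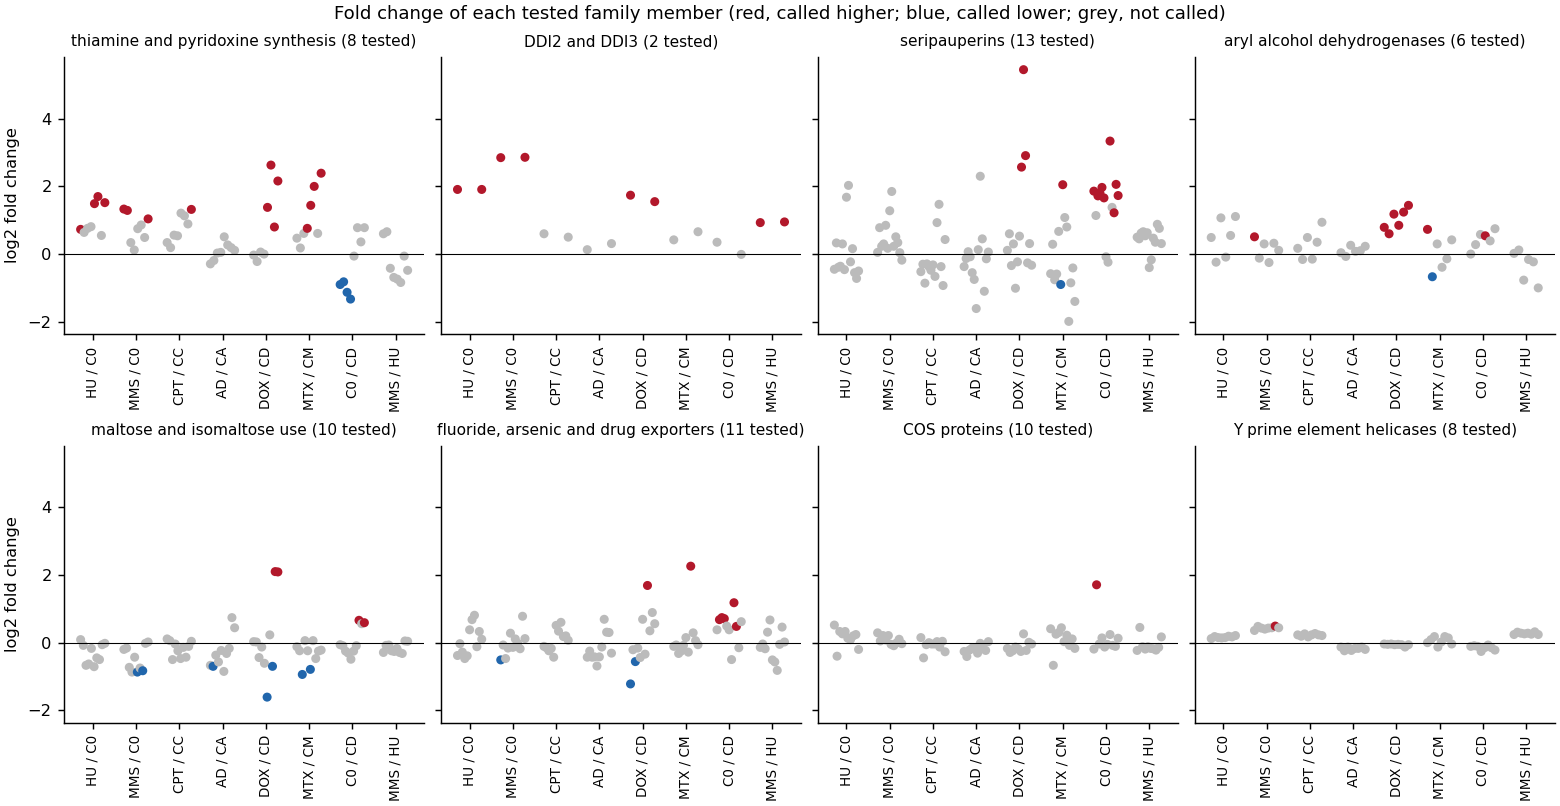
Log2 difference of each tested member in the subtelomeric gene families, by comparison; each point is a gene, red where edgeR called it higher, blue where lower and grey where not called. The 6 AAD genes lie between 0.60 and 1.44 in DOX, and the COS medians lie between -0.20 and 0.22 in the treatments.

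Several members were called in many treatments. RSC9 was lower in HU, MMS, CPT, DOX and MTX, by 0.70, 0.44, 0.55, 0.39 and 0.67 on the log2 scale, and in AD its cultures were at 296.1 and 273.4 CPM beside 276.9 and 281.3 CPM in CA. THI5 was called higher in the same 5 treatments. RPN12 and DFP4 were called higher in 4 each, RPN12 in MMS, CPT, DOX and MTX. FET4 was called in 4, higher in MMS and lower in AD, DOX and MTX. In all, 22 tested members (8.27%) were called in 3 or more treatments, against 5.71% of all features, and HU and MMS share their controls. The 22 include near-identical copies, DDI2 with DDI3 and THI5 with THI11 and THI12, so the same reads can count more than once. An end held 5 to 13 tested members. DOX, with 34.6% of members and 41.2% of all features called, had a called member at 31 of the 32 ends. HU, with 7.14% and 3.56%, had one at 13. These numbers of ends depend on the number of calls, and how calls are placed over the ends was not tested.

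A search for 6 short motifs on both strands of the 300 bases before the start codon gave the following shares, with no test. ATTGTT, the Rox1 core, was in 34.3% of 248 member promoters and 34.2% of all 5973, and AGGGG was in 21.4% and 22.2%. TTAGGG, the core bound by Tbf1, was in 5.65% against 7.47%, and it can overlap AGGGG. The Reb1 site TTACCCG was in 1.61% against 7.94%. TCGTATA was in 8.47% against 4.57%, and TGCACCC in 2.42% against 1.31%. Copies share their promoters, so these shares count the same sequence more than once. Over 124 promoters of members neither copied nor overlapping, the shares were 29.0% for the Rox1 core, 21.0% for the stress core, 6.45% for the Tbf1 core and 3.23% for the Reb1 site. For TCGTATA the share was 5.65%, and for the Aft1 core it was 4.03%. All 4 THI promoters hold TCGTATA, and they hold the Rox1 core as well. The Rox1 core was in 11 of 18 PAU promoters, in 9 of 11 COS promoters and in all 4 of the sugar alcohol family. AGGGG was in both DDI promoters, all 3 of the Hsp31 family, all 3 ERR promoters and 8 of 11 COS promoters. The COS genes had no edgeR call in any treatment, and whether these matches go with the calls was not tested. These matches are letters in a window, and no binding was measured.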

How the data were processed

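Total RNA of 44 libraries (11 groups, 2 cultures each, 2 technical replicates each) was measured by RNA-seq. Raw counts per feature were made with featureCounts 1.6.0 on sacCer3, per the file headers, which show no strand, pair or overlap option. Bowtie2 is named in the submitters' processing notes, with its version not given in the sources used. The deposited counts of the technical replicates were summed, giving 22 cultures, and 0 per-sample columns were left unused. CPM and RPKM were computed here from these counts, the latter per coding length (96.6% of lengths are multiples of 3). Libraries held 6.82 M to 15.08 M counts. Labels do not say that cultures shared a day, and p-values measure the spread between cultures.

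Features were kept with edgeR's filter (minimum count 10, minimum total 15), scaled by TMM and fitted in edgeR 4.0.16 (R 4.3.3, limma 3.58.1) with all 11 groups in 1 quasi-likelihood model, and p-values were adjusted by Benjamini-Hochberg over 6344 features. DESeq2 1.42.0 was an alternative. Near-identical copies were found with BLAST 2.17.0. Script results were tested on simulated data.

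Named genes are, in each comparison, the 6 called members per direction with the largest change, at 5 CPM or more in a group and with groups that do not overlap. The 6 highest members by vehicle RPKM are named too. Other genes, named for their family or for calls in many treatments, were chosen after their values were seen. The members and lists were chosen with earlier results of these data known. Reads that match several copies cannot be told apart, so values of copied genes are uncertain, and the reference strain is not W303, so a low value can also mean that the sequence differs or is missing in these cells. The stated limit for a count of 0 covers counting error only.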

Additional observations from a re-analysis of the deposited data

How the results depend on the processing

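No change of a named gene and no level reversed under the alternatives run, but the placement of the members against all features did: in DOX 34.6% against 41.2% became 48.1% against 42.1% without copied and overlapping features and 44.8% against 41.2% with copies summed, and in MTX 17.3% against 19.8% became 27.1% against 20% and 21.0% against 19.0%. Leaving aside fits without a culture, the members stood above all features under every alternative in HU and in C0 against CD, and each other comparison changed sides under at least 1. Shares of all features by the same rule stand in brackets after the share of the members. DESeq2 called 34 members in HU (12.8%, all 5.66%), 15 in CPT (5.98%, all 5.11%), 16 in AD (6.37%, all 6.88%) and 14 in MMS against HU (5.88%, all 7.17%). Fitting the 2 groups alone gave 40 in HU (15.3%, all 5.25%), 0 in CPT (30 at an unadjusted p under 0.05, all 0.464%), 0 in AD (24, all 0.0%), 94 in MTX (37.2%, all 36.2%) and 25 in MMS against HU (9.65%, all 9.34%). Of 129 members without a copy or overlap, 8 were called in HU, 20 in MMS, 5 in CPT, 6 in AD, 62 in DOX, 35 in MTX, 32 in C0 against CD and 5 in MMS against HU. Within 10 kb the calls were 5 of 133 in HU (3.76%, all 3.56%), 10 in MMS (7.52%, all 10.8%), 0 in CPT (all 2.81%), 3 in AD (2.26%, all 3.14%), 37 in DOX (27.8%, all 41.2%), 11 in MTX (8.27%, all 19.8%), 36 in C0 against CD (27.1%, all 20.1%) and 3 in MMS against HU (2.26%, all 4.52%). Within 30 kb they were 13 of 419 in CPT (3.1%), 16 in AD (3.82%), 152 in DOX (36.3%), 73 in MTX (17.4%) and 14 in MMS against HU (3.34%), beside the same shares of all features. Summing copies, added after seeing the data, gave 6 of 181 features in AD (3.31%, all 2.67%). Where no construction shows the cause, the cause was not tested.

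Leaving out a culture gave 4 to 12 calls in HU, 12 to 23 in MMS, 1 to 13 in CPT, 0 to 13 in AD, 63 to 67 in DOX, 18 to 26 in MTX, 18 to 65 in C0 against CD and 2 to 6 in MMS against HU. The lone culture is then assumed to vary like the other groups. The share of all features called in these fits was not set beside the counts. They therefore do not show whether members lost calls more often than other features. The 0 in AD came without AD culture 2, and it does not show that no member changed. Of 77 named calls, 34 were kept in every such fit. DESeq2 kept 77, no filter on low counts 77, DESeq2's size factors 76 and the fit of the 2 groups alone 59.

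The replicate block takes equal culture numbers as pairs. It gave 17 calls in HU (6.39%, all 3.34%), 30 in MMS (11.3%, all 10.6%) and 8 in CPT (3.01%, all 2.71%). In AD it gave 10 (3.76%, all 3.07%), in DOX 91 (34.2%, all 41.0%) and in MTX 47 (17.7%, all 19.6%). In C0 against CD it gave 65 (24.4%, all 19.5%) and in MMS against HU 7 (2.63%, all 4.33%). Of the 77 named calls, 75 were kept. Deviations of same-numbered cultures correlated from -0.24 (MTX and CM) to 0.71 (AD and CA), and with 2 cultures a group the numbers are not shown to pair them.

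The level of the members relative to other features was 0.144 within 10 kb, 0.34 within 30 kb, 0.498 without copies and 0.386 for annotated features. Depth limits members at few counts: 59 of 325 were not tested.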
